A study of Mus musculus with 11 samples.

Results

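Imprinted genes, which are expressed from the allele of 1 parent only, were examined for 5-hydroxymethylcytosine (5hmC) in mouse embryonic stem (ES) cells and in epiblast-like cells (EpiLC) derived from these. The set held 38 genes taken from a given list, against 20717 protein-coding genes measured in all. Each gene was represented by the 2 kb tiles that overlap its GRCm38 span plus 2 kb on either side, which gave 1575 tiles, of which 1504 were tested. All 38 genes kept at least 3 tested tiles. Of the 71 tiles left out, 68 had a low mean, among them 38 of Snrpn and 24 of Copg2, and 3 had too high a mean, 1 each in Peg10, Igf2r and Inpp5f. Members under 3 Mb apart were put in the same cluster, and the 38 genes then formed 20 clusters on 11 autosomes, 10 of them with a single member. Neighbours share data: 20 tiles overlap 2 members.

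HMCP-seq, a capture method that enriches DNA fragments carrying 5hmC before sequencing, had been run on 11 libraries. DNMT_WT, the unmodified parent of a line without Dnmt1, Dnmt3a and Dnmt3b, was sampled at day 2 of EpiLC formation (n = 3). TET_WT, the unmodified parent of a line without Tet1, Tet2 and Tet3, was sampled as ES cells in 2i/Lif at day 0 (n = 3), at day 1 (n = 2, numbered 2 and 3) and at day 2 of EpiLC formation (n = 3). No group used here carried a knockout, and the labels do not say whether replicates were separate cultures, so the p-values measure only the spread between these libraries, which may be technical.

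At an imprinted locus, methylation laid down in the egg or the sperm marks a short region, the germline differentially methylated region, on 1 parental allele, and that mark decides which allele of the nearby genes is read. Such regions lie, for example, over the starts of Peg3, Snrpn, Mest, Plagl1, Nap1l5 and Nnat, over the start of the non-coding RNA Airn inside Igf2r and of Kcnq1ot1 inside Kcnq1, and between Sgce and Peg10. TET enzymes oxidise methylated cytosine to 5hmC, so a capture of 5hmC can only be made where cytosine was methylated first. In the passage from naive ES cells to EpiLC, DNA methylation outside imprinted regions is known to rise over much of the genome. The libraries do not tell the parental alleles apart, and a lower value can be fewer alleles or cells with the mark or less of it on each.

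Values are log2 RPKM: reads in a tile were divided by its length in kilobases and by the library's reads, then put on a log2 scale. Such values are relative, and a genome-wide gain or loss of 5hmC leaves no trace in them. Reads recovered from the values numbered 7342022 in TET_WT day 1 replicate 2, the shallowest library, to 51604034 in TET_WT day 0 replicate 1. Tiles without reads made up 13.1% to 34.0% of a library, and such a tile stands at a value set by depth, from -5.63 in the deepest library to -2.81 in the shallowest. Across genes, TET_WT day 0 replicate 2 correlated with the other day 0 libraries at Pearson r = 0.9345 and 0.9351, against 0.957 between those, and pairs of day 2 libraries of the same line reached 0.978 to 0.981. Counts of calls that rest on day 0 are therefore also given without that library. RNA was not measured, so cell identity could not be checked from marker expression.

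Windows of 250 bases before 7 starts are shown as examples of starts whose tile passed between day 2 and day 0 or between lines, as described further on. They come from RefSeq on GRCm38.p6 and read 5′ to 3′ on the strand of the gene, with every CpG, the dinucleotide that is methylated, in capitals. The windows are chr7:6730420-6730669, minus strand for Peg3, chr7:60005200-60005449, minus strand for Snrpn, chr6:30737800-30738049, plus strand for the inner start of Mest, chr2:157559828-157560077, plus strand for Nnat, chr17:12741061-12741310, plus strand for Airn, chr2:174284070-174284319, plus strand for the most upstream start of Gnas and chr12:110278980-110279229, plus strand for Dio3.
Peg3: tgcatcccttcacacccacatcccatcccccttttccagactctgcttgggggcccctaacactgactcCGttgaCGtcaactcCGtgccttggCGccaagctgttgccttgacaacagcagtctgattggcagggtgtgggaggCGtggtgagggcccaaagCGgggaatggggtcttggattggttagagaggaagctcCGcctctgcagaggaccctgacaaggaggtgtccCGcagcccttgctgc
Snrpn: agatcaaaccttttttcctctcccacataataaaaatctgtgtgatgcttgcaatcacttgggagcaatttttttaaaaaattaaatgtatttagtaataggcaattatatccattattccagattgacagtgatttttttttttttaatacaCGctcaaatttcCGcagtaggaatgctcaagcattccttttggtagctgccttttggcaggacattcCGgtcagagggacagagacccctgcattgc
Mest: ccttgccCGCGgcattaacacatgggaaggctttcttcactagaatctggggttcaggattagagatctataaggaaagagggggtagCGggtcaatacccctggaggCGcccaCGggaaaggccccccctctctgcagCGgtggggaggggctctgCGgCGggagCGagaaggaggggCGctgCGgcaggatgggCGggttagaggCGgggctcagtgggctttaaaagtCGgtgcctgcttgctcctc
Nnat: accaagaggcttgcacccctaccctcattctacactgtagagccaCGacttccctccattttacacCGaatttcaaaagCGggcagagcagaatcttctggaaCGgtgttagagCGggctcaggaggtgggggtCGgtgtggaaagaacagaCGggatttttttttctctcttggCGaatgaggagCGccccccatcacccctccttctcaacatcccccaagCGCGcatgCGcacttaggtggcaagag
Airn: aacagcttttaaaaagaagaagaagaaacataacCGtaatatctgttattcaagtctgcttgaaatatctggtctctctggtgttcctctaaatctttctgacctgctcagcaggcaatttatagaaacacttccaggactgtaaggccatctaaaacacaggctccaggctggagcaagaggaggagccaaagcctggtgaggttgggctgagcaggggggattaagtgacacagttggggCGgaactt
Gnas: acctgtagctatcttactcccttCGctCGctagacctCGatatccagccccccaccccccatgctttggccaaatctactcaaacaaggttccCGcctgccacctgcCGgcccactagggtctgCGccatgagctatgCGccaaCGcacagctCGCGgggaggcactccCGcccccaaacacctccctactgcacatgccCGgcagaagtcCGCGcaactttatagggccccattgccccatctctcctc
Dio3: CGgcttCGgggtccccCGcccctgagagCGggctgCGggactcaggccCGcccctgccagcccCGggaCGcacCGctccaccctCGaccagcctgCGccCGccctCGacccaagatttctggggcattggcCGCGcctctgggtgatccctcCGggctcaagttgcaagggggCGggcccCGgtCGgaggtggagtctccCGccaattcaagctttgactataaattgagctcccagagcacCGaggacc
The window of Dio3 holds 21 CpG, those of Mest and Gnas 14 each, Nnat 12, Peg3 8, Snrpn 3 and Airn 2, against a median of 6 over all 32851 start windows of the same length and of 12 over the 47 windows of members. The hexamer TGCCGC, which the imprint-keeping zinc-finger protein Zfp57 is known to bind when methylated, was searched on both strands as the only motif. It stood 2 times in the window of Mest and in no other of these 7. Over all windows 8.68% held it, and 8 of the 47 windows of members (17%) did. Among these 8 are overlapping windows of Mest, before the starts at chr6:30738050 and chr6:30738053, which hold the same copies. An annotated start was at hand for 30 of the 38 members, and with Airn and Kcnq1ot1 these starts fell in 45 tiles, all tested.

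Levels of 5hmC differed widely among the imprinted genes, and 19 of 38 lay above the median level of all genes. Slc38a4, an amino-acid transporter, had the highest level, a mean log2 RPKM of 1.36 over all libraries, at percentile 93.6 of all genes. Its values were 1.42, 1.3 and 1.32 in DNMT_WT at day 2, and 1.45, 1.49 and 1.42 at day 0, 1.17 and 1.27 at day 1 and 1.43, 1.24 and 1.48 at day 2 in TET_WT. These 11 libraries span a narrow range, and no group stands apart in them. Rtl1, a gene derived from a retrotransposon that acts in placenta, followed at 1.09 (percentile 87.9), and Mest, which encodes an enzyme of the hydrolase family, at 1.07 (percentile 87.4). Mest measured 0.86, 0.73 and 0.97 in DNMT_WT at day 2, and 1.22, 1.26 and 1.26 at day 0, 1.04 and 1.26 at day 1 and 0.91, 1.09 and 1.14 at day 2 in TET_WT, with the DNMT_WT libraries among the lowest.

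The lowest 3 members sit together in the cluster of Prader-Willi and Angelman syndromes on chromosome 7. Snrpn, which encodes a protein of the splicing machinery and whose annotated span here covers its long upstream transcripts, averaged -3.35 (percentile 7.06), with -3.71, -3.06 and -3.51 in DNMT_WT at day 2, and -3.27, -3.92 and -3.26 at day 0, -2.25 and -3.27 at day 1 and -3.56, -3.45 and -3.56 at day 2 in TET_WT. Mkrn3, a ubiquitin ligase that holds back puberty, averaged -3.02 (percentile 10.1), with -2.73, -3.11 and -2.99 in DNMT_WT at day 2, and -2.89, -3.86 and -4.0 at day 0, -1.95 and -3.06 at day 1 and -2.76, -2.72 and -3.15 at day 2 in TET_WT. Ube3a, the ubiquitin ligase lost in Angelman syndrome, averaged -2.72 (percentile 12.9), with -3.09, -2.88 and -3.07 in DNMT_WT at day 2, and -1.87, -3.94 and -1.75 at day 0, -2.14 and -2.48 at day 1 and -2.84, -2.78 and -3.08 at day 2 in TET_WT. At such levels most tiles hold few reads, and TET_WT day 0 replicate 2 was the lowest library for Snrpn and Ube3a. Neighbouring ranks were often closer than the replicates: the group means of Dlk1, Sgce, Dio3, Igf2r, Phlda2, Ddc and H13 run through each other from group to group, and Dio3 was higher than Slc38a4 in all 3 DNMT_WT libraries.

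**Figure D1:**
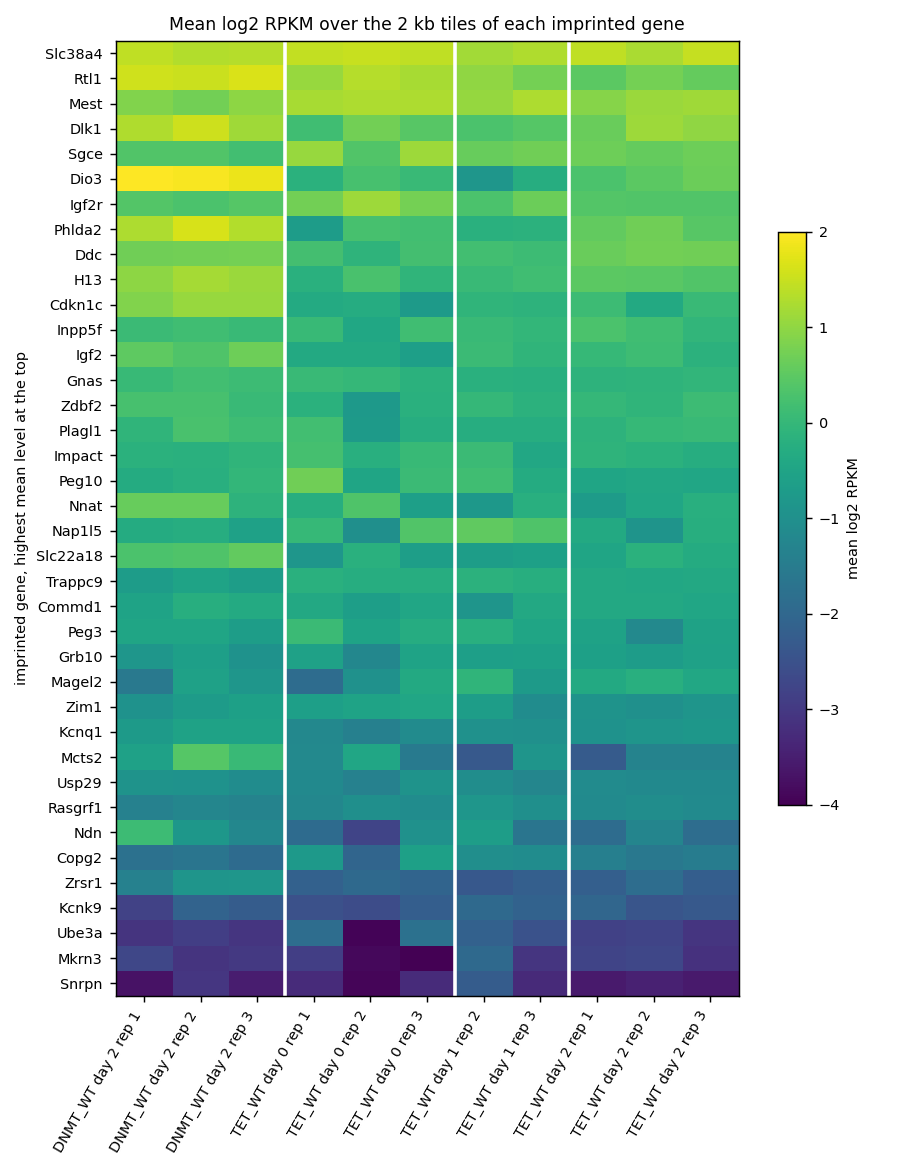
Mean log2 RPKM (colour) of each of the 38 imprinted genes (rows, highest mean at the top) in each library (columns, DNMT_WT day 2 first, then TET_WT at day 0, day 1 and day 2). Slc38a4 is high in all 11 libraries and Snrpn low in all, while Dio3, Phlda2, H13, Cdkn1c and Slc22a18 are higher in the DNMT_WT columns than in the TET_WT columns.

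TET_WT at day 2 was compared with day 0 to ask what happened to 5hmC at imprinted genes as ES cells became EpiLC. Over whole genes, 4 members rose (H13, Igf2, Phlda2 and Ddc) and 2 fell (Rtl1 and Igf2r) in limma's test with Benjamini-Hochberg adjustment over all genes, and 32 did not pass. That is 15.8% of members, against 17.8% of all genes, of which 15.3% were higher and 2.51% lower. The median difference of the members was 0.0005 and 19 of 38 were positive, while the median of all genes was 0.093. The split of the calls depends on the scale: it was 1 higher and 4 lower with median centring, 1 and 6 with quantile normalization and 6 and 12 with voom on the recovered reads, where all genes gave 7.37% and 4.8%, 8.71% and 8.51%, and 16.9% and 13.1%. Median centring moved the median difference of all genes by -0.138 and quantile normalization by -0.123. Without TET_WT day 0 replicate 2 the split was 8 and 8, against 22% and 9.56% of all genes.

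Rtl1 (GRCm38 chr12:109564900-109604418) had 0.50, 0.75 and 0.59 in TET_WT at day 2, against 1.06, 1.33 and 1.21 at day 0. All day 2 libraries lay below all day 0 libraries, and day 1 had 1.0 and 0.75. The difference was -0.59 (SE 0.11, adjusted p = 0.00206), and it passed in all 22 alternatives run. Igf2r (chr17:12682406-12769706), the receptor that removes the growth factor Igf2 from the cell surface, had 0.38, 0.37 and 0.38 in TET_WT at day 2, against 0.72, 1.13 and 0.74 at day 0, again without overlap. It differed by -0.49 (SE 0.13, adjusted p = 0.0178), a call lost without TET_WT day 2 replicate 1, 2 or 3, and with the median over tiles (differences -0.57 to -0.48, adjusted p 0.0507 to 0.0595).

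Ddc (chr11:11814101-11898144), the decarboxylase that makes dopamine and serotonin, had 0.63, 0.73 and 0.70 in TET_WT at day 2, against 0.20, -0.10 and 0.22 at day 0. The groups did not overlap, and the difference was 0.58 (SE 0.11, adjusted p = 0.00243), lost only with the median over tiles (0.26, adjusted p = 0.266), among the 22 alternatives run. H13 (chr2:152669422-152708668), a signal peptide peptidase, had 0.50, 0.47 and 0.37 in TET_WT at day 2, against -0.18, 0.28 and -0.084 at day 0, a difference of 0.44 (SE 0.13, adjusted p = 0.0287). Igf2 (chr7:142650768-142666816), the fetal growth factor, had 0.030, 0.14 and -0.14 in TET_WT at day 2, against -0.35, -0.36 and -0.62 at day 0, a difference of 0.45 (SE 0.14, adjusted p = 0.0364). Phlda2 (chr7:143501545-143503145), which limits growth of the placenta, had 0.56, 0.71 and 0.45 in TET_WT at day 2, against -0.68, 0.25 and 0.17 at day 0, a difference of 0.66 (SE 0.20, adjusted p = 0.0394). In each of these 3 genes the groups did not overlap, but the calls rest on the processing: that of H13 passed in 12 of 22 alternatives and that of Phlda2 in 7 of 21. For H13 it was lost without TET_WT day 0 replicate 1 or 3 or TET_WT day 2 replicate 1, 2 or 3, and at equal depth, with only the compared groups fitted, without the variance trend, with median centring, with quantile normalization (differences 0.30 to 0.48, adjusted p 0.0573 to 0.2). For Igf2 the alternatives that ended it included those without DNMT_WT replicate 1 or TET_WT day 0 replicate 1 or 3 or TET_WT day 2 replicate 1 or 2, and at equal depth, with only the compared groups fitted, without the variance trend, with median centring, with quantile normalization, with voom (differences 0.11 to 0.50, adjusted p 0.0532 to 0.622). For Phlda2 it was lost without DNMT_WT replicate 1 or 3 or TET_WT day 0 replicate 1 or TET_WT day 1 replicate 2 or 3 or TET_WT day 2 replicate 1, 2 or 3, and with the median over tiles, at equal depth, with only the compared groups fitted, without the variance trend, with median centring, with quantile normalization (differences 0.36 to 0.72, adjusted p 0.05 to 0.184).

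Without day 0 replicate 2, 10 further imprinted genes passed. Those that were lower at day 2 were Peg10 (-0.84, adjusted p = 0.00721), Copg2 (-0.84, adjusted p = 0.0015), Peg3 (-0.66, adjusted p = 0.0339), Nap1l5 (-0.69, adjusted p = 0.0248), Sgce (-0.44, adjusted p = 0.00379) and Ube3a (-1.09, adjusted p = 0.00467). Higher were Dlk1 (0.62, adjusted p = 0.017), Dio3 (0.54, adjusted p = 0.0393), Cdkn1c (0.47, adjusted p = 0.0466) and Slc22a18 (0.42, adjusted p = 0.0321). With all 11 libraries their differences had the same signs, from -0.55 for Peg10 to 0.48 for Dlk1, and none passed.

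**Figure D2:**
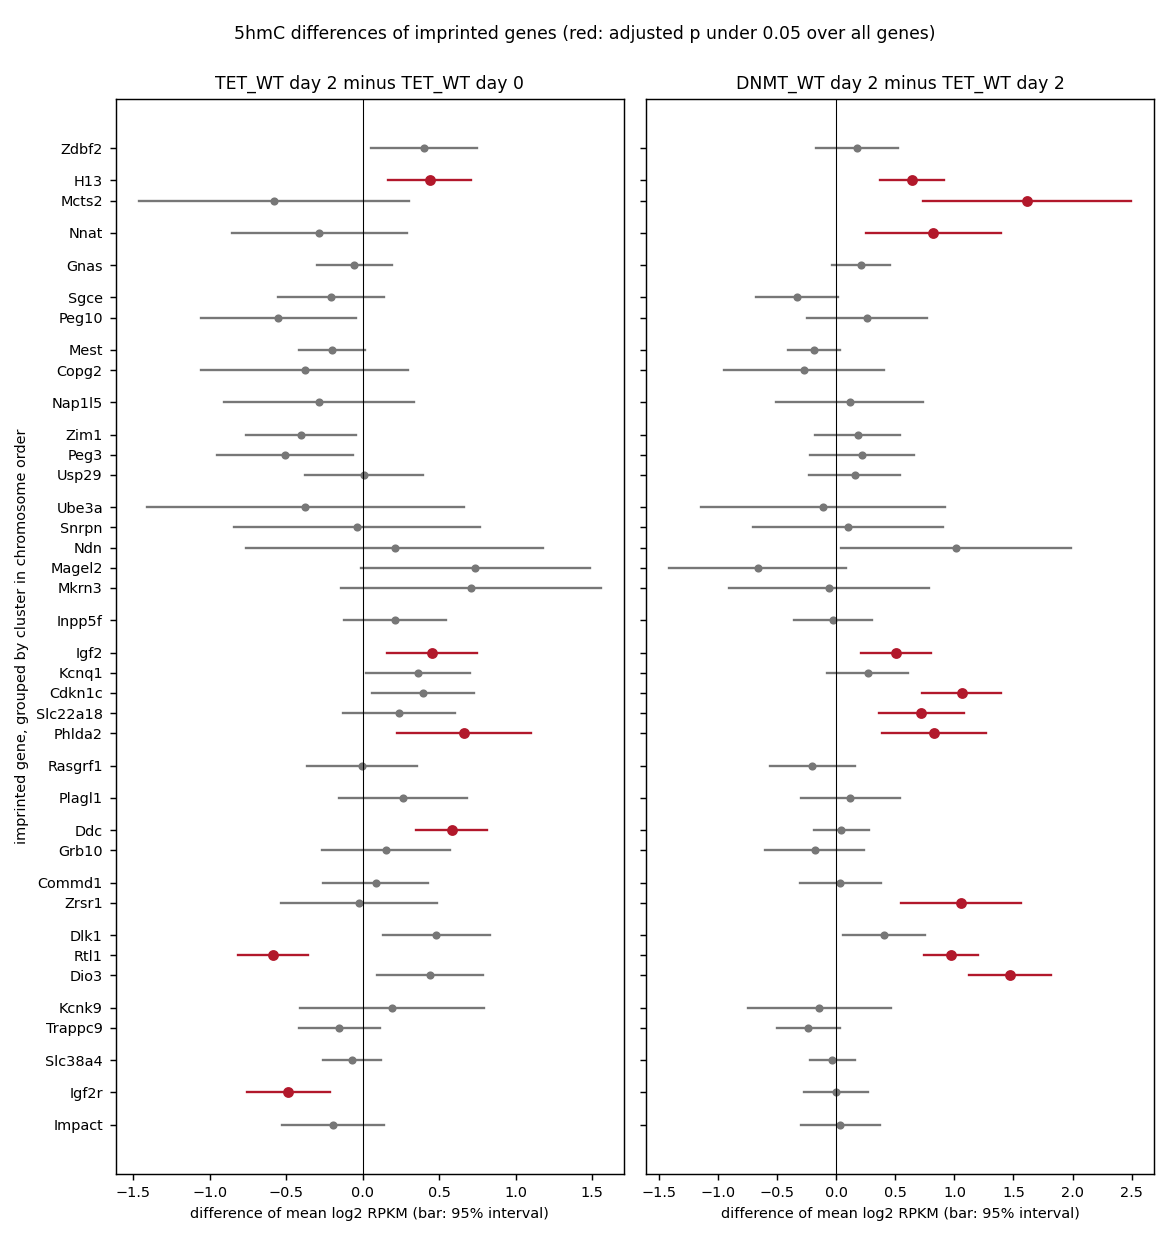
Differences of mean log2 RPKM with 95% intervals for the 38 imprinted genes, grouped by cluster, for TET_WT day 2 minus day 0 (left) and for DNMT_WT minus TET_WT at day 2 (right). Red marks the genes past the threshold: 4 higher and 2 lower on the left, 10 higher and 0 lower on the right.

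At gene starts more tiles of imprinted genes were called lower than higher. Of the 45 tiles over their starts, 6 fell at day 2 and 2 rose, or 13.3% lower and 4.44% higher, while over all 26689 tested tiles with an annotated start 1.97% were lower and 15.3% higher. The median difference of the 45 was 0.047, against 0.27 over all such tiles, and 21 of the 45 differences were negative. The tiles that fell lie over Peg3 and Usp29, Snrpn, the inner start of Mest, Nnat, Airn in Igf2r, and the outermost start of Igf2. Those that rose lie over Ndn and the most upstream start of Gnas. Without TET_WT day 0 replicate 2, 3 fell and 2 rose, with median centring 2 and 1, and at equal depth 0 and 0. They were 4 and 1 without TET_WT day 2 replicate 1 or 2, and 4 and 0 without replicate 3. Without TET_WT day 0 replicate 1 they were 5 and 1. Tiles that rose numbered 1 without DNMT_WT replicate 1 or 3, and 3 without either day 1 library. Of the starts named above as germline regions, those of Plagl1, Nap1l5 and Kcnq1ot1 did not pass. The start tile of Plagl1 (chr10:13090001-13092000) differed by 0.028 (SE 0.25, adjusted p = 0.978) between day 2 and day 0. That of Nap1l5 (chr6:58906001-58908000) differed by -0.71 (SE 0.31, adjusted p = 0.181), with overlap between the days.

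Peg3, a zinc-finger gene, and Usp29, a ubiquitin protease gene that runs the other way, start in the same tile (chr7:6730001-6732000), which had -0.69, -1.12 and -0.035 at day 2, against 0.97, 1.27 and 1.03 at day 0. Day 2 held 15, 8 and 23 reads, against 87, 62 and 87 at day 0. Every day 2 library lay below every day 0 library, and day 1 was still at 0.92 and 0.56. The difference was -1.71 (SE 0.38, adjusted p = 0.000507), lost only at equal depth, without the variance trend (differences -1.71 to -1.16, adjusted p 0.0593 to 0.407), among the 18 alternatives run. The next tile inside Peg3 (chr7:6728001-6730000) differed by -2.15 (SE 0.51, adjusted p = 0.00116), the one after it (chr7:6726001-6728000) by -2.29 (SE 0.75, adjusted p = 0.0362) and a tile inside Usp29 (chr7:6734001-6736000) by -3.07 (SE 0.89, adjusted p = 0.0125). Between the last of these and the shared start, the tile chr7:6732001-6734000 differed by -0.00098 (SE 0.66, adjusted p = 0.999). For the Usp29 tile, the most negative of the called tiles of members, day 2 held 2, 0 and 1 reads, and the call was lost without TET_WT day 0 replicate 1 or 3 or TET_WT day 2 replicate 3, and at equal depth (differences -2.92 to -1.26, adjusted p 0.0598 to 0.531).

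Snrpn showed the largest loss over a start. The tile over the start it shares with Snurf (chr7:60004001-60006000) had -1.79, -2.54 and -1.56 at day 2, against 0.48, 1.07 and 0.40 at day 0, with 7, 3 and 8 reads at day 2 and 62, 54 and 56 at day 0. Day 1 stood at 0.34 and -0.32, below day 0 and above all day 2 libraries. The difference was -2.61 (SE 0.62, adjusted p = 0.00108), without overlap, a call lost only at equal depth, without the variance trend (differences -2.87 to -2.61, adjusted p 0.073 to 0.0751), among the 18 alternatives run. Snrpn as a whole gene differed by -0.038 (SE 0.37, adjusted p = 0.969), which did not pass. Its 3 further annotated starts, all upstream, did not pass.

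The tile over the inner start of Mest (chr6:30738001-30740000) had 1.13, 0.63 and 1.3 at day 2, against 1.88, 2.76 and 1.64 at day 0, a difference of -1.07 (SE 0.33, adjusted p = 0.0206). Nnat, which encodes a small membrane protein of nerve cells, had -1.01, -0.035 and -0.035 at day 2, against 1.03, 1.25 and 0.080 at day 0 over its start (chr2:157560001-157562000), a difference of -1.15 (SE 0.37, adjusted p = 0.0326). Over the start of Airn (chr17:12740001-12742000), the antisense RNA that silences Igf2r in cis, values were -0.35, 0.048 and -0.97 at day 2, against 0.79, 1.17 and 0.63 at day 0, a difference of -1.29 (SE 0.38, adjusted p = 0.014). In all 3 tiles the day 2 libraries lay below the day 0 libraries. The outermost start of Igf2 (chr7:142666001-142668000) differed by -0.76 (SE 0.25, adjusted p = 0.0333). These 4 calls were lost under more alternatives than those of Peg3 and Snrpn. Mest was lost without TET_WT day 0 replicate 2 or TET_WT day 2 replicate 1 or 2, and at equal depth, with median centring, without the variance trend (differences -1.13 to -0.74, adjusted p 0.0529 to 0.466). Nnat was lost without TET_WT day 0 replicate 1 or 2 or TET_WT day 2 replicate 1, and at equal depth, with median centring, without the variance trend (differences -1.66 to -0.82, adjusted p 0.111 to 0.319). Airn was lost without TET_WT day 0 replicate 2 or TET_WT day 2 replicate 3, and at equal depth, with median centring, without the variance trend (differences -1.29 to -0.95, adjusted p 0.0606 to 0.246). Igf2 was lost without TET_WT day 0 replicate 2 or TET_WT day 2 replicate 2 or 3, and at equal depth, with median centring, without the variance trend (differences -0.76 to -0.38, adjusted p 0.13 to 0.596).

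Of the pair that rose, the most upstream start of Gnas, the gene of the stimulatory G-protein subunit (chr2:174284001-174286000), had 0.61, 0.048 and 0.35 at day 2, against -0.47, -0.51 and -1.24 at day 0, a difference of 1.08 (SE 0.34, adjusted p = 0.025). Ndn, a gene of the MAGE family expressed in nerve cells, had -0.011, 0.88 and 0.14 at day 2, against -0.72, -0.78 and -0.55 at day 0 over its start (chr7:62348001-62350000), a difference of 1.02 (SE 0.33, adjusted p = 0.0344). Neither tile overlapped between the days. The Gnas call was lost without TET_WT day 0 replicate 3 or TET_WT day 2 replicate 1 or 3, and at equal depth, without the variance trend, with only the compared groups fitted (differences 0.83 to 2.07, adjusted p 0.0553 to 0.228). The Ndn call was lost without DNMT_WT replicate 1, 2 or 3 or TET_WT day 0 replicate 1 or 2 or TET_WT day 2 replicate 2 or 3, and at equal depth, with median centring, without the variance trend, with only the compared groups fitted (differences 0.73 to 1.12, adjusted p 0.0502 to 0.618). None of the 8 calls over starts passed when every library was thinned to 7342022 reads or when the variance trend was left out. Without the trend, 1 start tile other than these 8 was called lower.

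**Figure D3:**
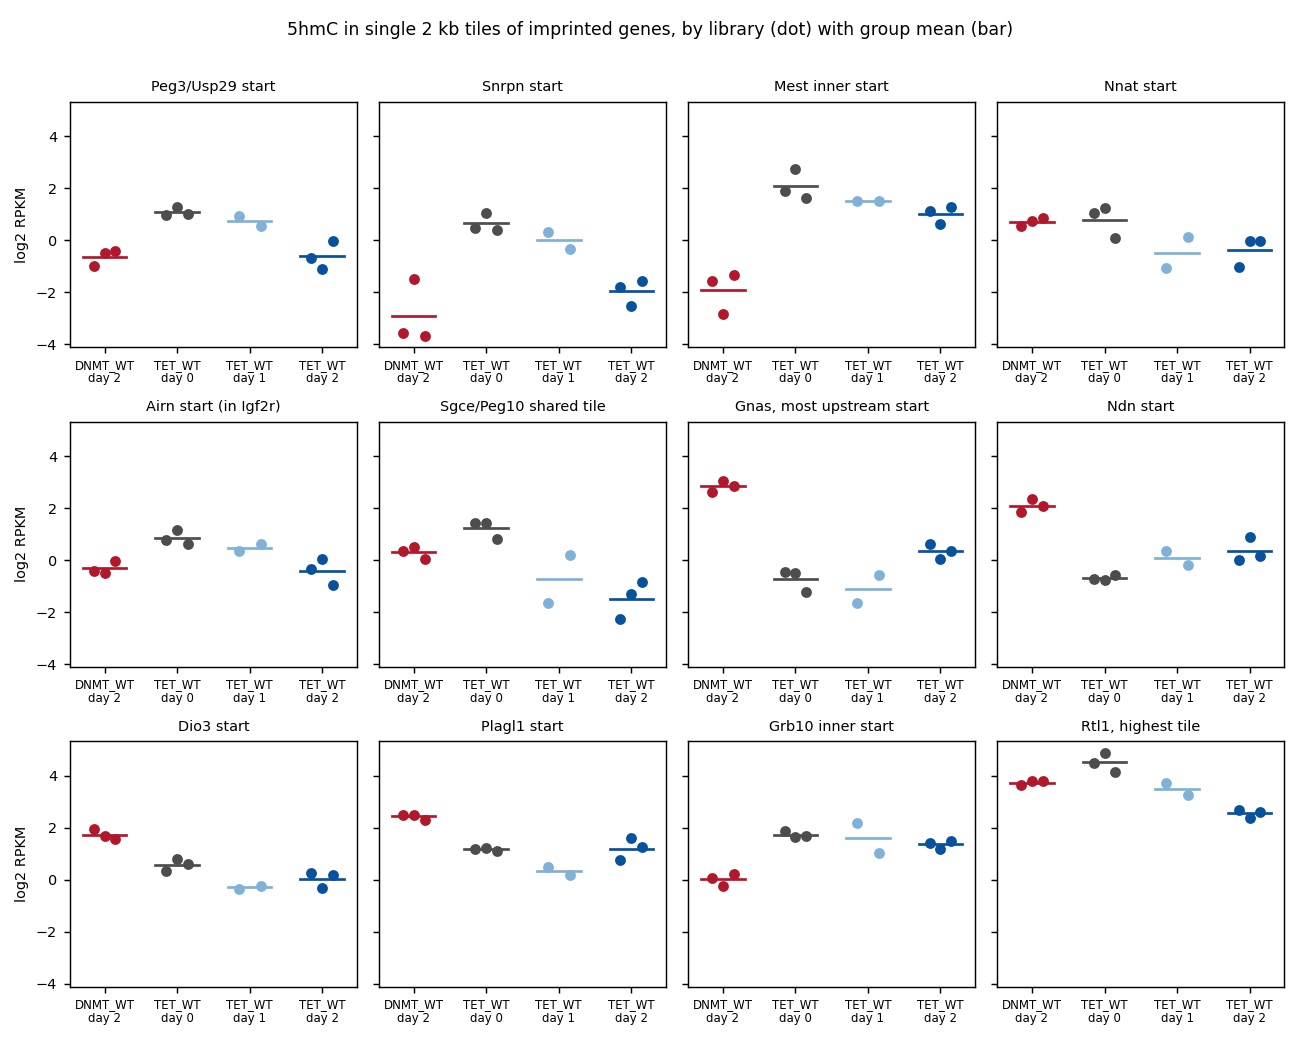
log2 RPKM of 12 tiles of imprinted genes in every library (dots) with the group mean (bars), for DNMT_WT at day 2 and TET_WT at day 0, day 1 and day 2. At Snrpn the TET_WT day 2 dots lie at -1.79, -2.54 and -1.56, below all day 0 dots. At the most upstream start of Gnas the DNMT_WT dots lie at 2.64, 3.06 and 2.87, above all others.

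Outside the 45 start tiles, values were also lower over some tiles of Sgce and Peg10, Impact and Trappc9. These tiles were picked after their values were seen except the shared tile of Sgce and Peg10, which is among the 3 most negative. Between Sgce, a sarcoglycan of muscle membranes, and Peg10, a retrotransposon-derived gene needed in placenta, the shared tile chr6:4748001-4750000 had -2.27, -1.31 and -0.86 at day 2, against 1.42, 1.45 and 0.80 at day 0. Day 1 was at -1.66 and 0.19, apart from each other but both below day 0. The day 2 difference of -2.70 (SE 0.42, adjusted p = 1.49e-07) was the second most negative of the called tiles of members. The neighbouring tile chr6:4746001-4748000 had -0.43, 0.52 and 0.085 at day 2, against 0.98, 1.64 and 1.08 at day 0, a difference of -1.17 (SE 0.31, adjusted p = 0.00533) that was lost without TET_WT day 0 replicate 2 or TET_WT day 2 replicate 1, and at equal depth, with median centring, without the variance trend (differences -1.17 to -0.93, adjusted p 0.0505 to 0.199).

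Inside Impact, a regulator of translation, the tile chr18:12972001-12974000 differed by -1.77 (SE 0.56, adjusted p = 0.0297), with -0.27, -0.80 and -0.65 at day 2, against 1.28, 1.20 and 1.1 at day 0, a call lost without TET_WT day 0 replicate 1, 2 or 3 or TET_WT day 2 replicate 1, 2 or 3, and at equal depth, with median centring, without the variance trend (differences -1.92 to -1.63, adjusted p 0.0539 to 0.258). Peg13 is a non-coding RNA inside Trappc9, a gene of vesicle transport. Of the 4 tiles over Peg13, 2 fell. The first (chr15:72808001-72810000) had 1.57, 1.20 and 1.11 at day 2, against 2.43, 3.12 and 2.07 at day 0, a difference of -1.24 (SE 0.23, adjusted p = 8.63e-06), and the second (chr15:72810001-72812000) differed by -1.05 (SE 0.25, adjusted p = 0.00119). Over the other 235 tiles of Trappc9 6 rose and 7 fell.

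Rtl1 held the tile with the highest mean of all tested member tiles (chr12:109592001-109594000, mean 3.59), and the groups stood far apart there. It had 2.69, 2.37 and 2.63 at day 2, against 4.50, 4.90 and 4.17 at day 0, and 156, 90 and 146 reads at day 2 against 1004, 768 and 764 at day 0. Day 1 lay between at 3.75 and 3.26, and the 3 days did not overlap. The difference of -1.96 (SE 0.13, adjusted p = 3.18e-29) passed in all 18 alternatives run. The tile beside it (chr12:109590001-109592000) fell by 1.28 (SE 0.13, adjusted p = 7.41e-15). In all, 6 of the 23 tiles of Rtl1 fell and 1 rose, and 20 of 23 differences were negative. In Igf2r 5 of 45 tiles fell and 0 rose, led by chr17:12762001-12764000 with -1.01, -1.54 and -0.86 at day 2, against 0.25, 1.25 and 0.52 at day 0, a difference of -1.81 (SE 0.45, adjusted p = 0.0025).

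Counted over all tiles of members, 111 rose and 64 fell at day 2, or 11.6% of 1504, against 8.01% of all tiles. Higher calls made up 7.38%, against 5.33% of all tiles, and lower calls 4.26%, against 2.68%. Tiles that rose lay in 22 members and tiles that fell in 22. The counts were 21 and 13 at equal depth, 19 and 3 without the variance trend, and 90 and 26 with median centring, a split further towards gains. Without day 0 replicate 2 they were 119 and 44.

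The largest gains lay away from starts. A tile inside Grb10, an adaptor that dampens insulin and growth-factor signals (chr11:11948001-11950000), had 1.59, 1.3 and 0.69 at day 2, against -2.3, -4.68 and -2.41 at day 0. Day 2 held 73, 43 and 38 reads, against 9, 1 and 8 at day 0. Day 1 was between at -0.34 and -1.39, the 3 days did not overlap and the difference was 4.33 (SE 0.45, adjusted p = 6.37e-15). Plagl1, a zinc-finger factor that stops cell division, had 2 neighbouring tiles of this kind: chr10:13106001-13108000 with 1.05, 0.27 and 1.49 at day 2, against -2.15, -3.68 and -3.41 at day 0 and a difference of 4.02 (SE 0.49, adjusted p = 9.05e-12), and chr10:13108001-13110000 with a difference of 3.56 (SE 0.58, adjusted p = 6.04e-07). For the second, day 1 held 1 and 0 reads, against 3, 7 and 6 at day 0. Kcnq1, a potassium channel gene, had a tile (chr7:143122001-143124000) with -0.20, 0.13 and 0.085 at day 2, against -3.89, -3.10 and -3.83 at day 0, a difference of 3.61 (SE 0.69, adjusted p = 2.56e-05), and its neighbour (chr7:143120001-143122000) differed by 3.36 (SE 0.60, adjusted p = 4.86e-06). All these tiles had few reads at day 0, from 1 to 10 a library, so the size of each gain rests on few counts.

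Kcnq1 had the most gains of any member, 25 of 163 tiles, with 2 losses. In the part it shares with Kcnq1ot1, an antisense RNA that silences neighbouring genes in cis, 2 of 43 tiles rose and 2 fell, while 23 of 120 tiles outside rose and 0 fell. The mean difference was 0.014 over the Kcnq1ot1 span and 0.49 outside it. The difference between these parts was not tested, since neighbouring tiles are not replicates. Ddc followed with 15 of 45 tiles higher and 1 lower, then Zdbf2 with 13 of 60 and 1, Grb10 with 8 of 55 and 1, and H13 with 7 of 23 and 0. Zdbf2 encodes a zinc-finger protein known for its effect on growth, and as a whole gene it had 0.0075, -0.076 and 0.11 in TET_WT at day 2, against -0.17, -0.78 and -0.20 at day 0, a difference of 0.40 (SE 0.16, adjusted p = 0.111) that did not pass.

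Each cluster was also followed at its own strongest tile, the tested tile with the highest mean. Of these 20, 5 fell and 4 rose at day 2, against 2.68% and 5.33% of all tiles, most of which have fewer reads. Without TET_WT day 0 replicate 2, 4 fell and 5 rose. The falls were in Rtl1 (above), Peg3 (-0.76, adjusted p = 4.04e-06), Slc38a4 (-0.74, adjusted p = 1.48e-05), Grb10 (-0.69, adjusted p = 0.00126) and Gnas (-0.57, adjusted p = 0.00168). The gains were in Trappc9 (0.70, adjusted p = 0.000235), Kcnq1 (0.68, adjusted p = 0.000263), H13 (0.48, adjusted p = 0.0216) and Zdbf2 (0.42, adjusted p = 0.0204). The H13 tile (chr2:152704001-152706000) overlapped between the days. Its call was lost without TET_WT day 0 replicate 3 or TET_WT day 2 replicate 2 or 3, and at equal depth, with median centring, without the variance trend (adjusted p 0.11 to 0.544). The other 11, in Nnat, Sgce, Mest, Nap1l5, Magel2, Inpp5f, Rasgrf1, Plagl1, Commd1, Igf2r and Impact, did not pass, with differences from -0.19 to 0.49.

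**Figure D4:**
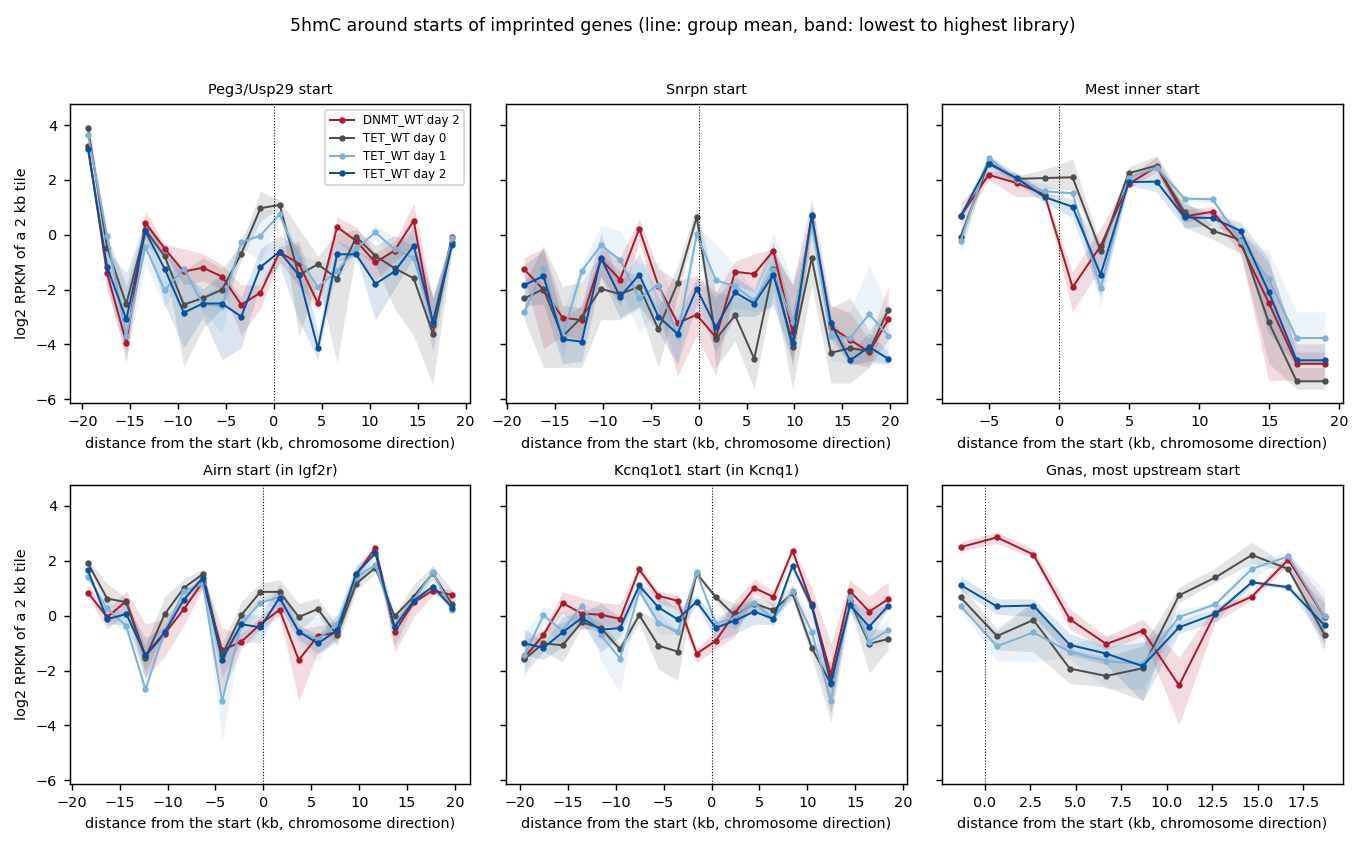
Group mean log2 RPKM (lines) with the lowest and highest library (bands) of 2 kb tiles up to 20 kb from 6 starts, against distance in kb in the direction of the chromosome. TET_WT day 0 stands above day 2 over the Peg3/Usp29, Snrpn and Airn starts, DNMT_WT dips beside the inner start of Mest, and DNMT_WT is highest over the most upstream start of Gnas.

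Day 1 was compared with day 0, and day 2 with day 1, to place these changes in time. These comparisons share libraries with that of day 2 and day 0, so their values are given side by side. Between day 1 and day 0 limma called 0 members over whole genes, as it did of all genes (0%), while 6 members and 2551 genes had an unadjusted p under 0.05. On the recovered reads voom called 46 genes higher and 102 lower, with 0 members among them. With only 2 day 1 libraries, 1 of them the shallowest, this does not show that the genes were alike. The 6 members were Igf2 (0.45) and Mkrn3 (1.08) above, and Rtl1 (-0.33), Dio3 (-0.60), Slc38a4 (-0.23) and Igf2r (-0.39) below day 0.

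Among tiles of members 8 rose and 15 fell at day 1, or 1.53%, against 1.01% of all tiles, and 0 of the 45 start tiles passed, against 1.81% of all start tiles. Of the start tiles 1 was higher without TET_WT day 0 replicate 2, and 1 lower without day 0 replicate 3 or day 1 replicate 3. The most negative was in Rtl1 (chr12:109602001-109604000, over the start of the non-coding RNA Rian), at -2.66 and -4.56 on day 1 against -0.12, -0.51 and -0.95 on day 0, a difference of -3.08 (SE 0.76, adjusted p = 0.0153). At day 1 it held 1 and 1 reads. After it came the tile between Sgce and Peg10, -1.96 (SE 0.47, adjusted p = 0.0131), and a tile in Igf2r (chr17:12762001-12764000), -1.88 (SE 0.51, adjusted p = 0.0353). The tiles that rose most were in Grb10 (chr11:11948001-11950000), 2.27 (SE 0.51, adjusted p = 0.00563), in Usp29 (chr7:6874001-6876000), 1.55 (SE 0.34, adjusted p = 0.00529), and in Cdkn1c (chr7:143458001-143460000), 1.48 (SE 0.38, adjusted p = 0.0248). Each of these 6 calls was lost when a single library was left out. Rtl1 was lost without TET_WT day 0 replicate 1 or TET_WT day 1 replicate 3 (differences -2.88 to -2.13, adjusted p 0.0817 to 0.181). Sgce/Peg10 was lost without TET_WT day 0 replicate 1 or 2 or TET_WT day 1 replicate 2 (differences -1.86 to -1.03, adjusted p 0.0599 to 0.595). Igf2r was lost without TET_WT day 0 replicate 2 or 3 or TET_WT day 1 replicate 2 (differences -1.96 to -1.43, adjusted p 0.0624 to 0.398). Grb10 was lost without TET_WT day 0 replicate 2 or TET_WT day 1 replicate 2 (differences 1.49 to 1.74, adjusted p 0.0737 to 0.265). Usp29 was lost without TET_WT day 1 replicate 2 (1.52, adjusted p = 0.0858). Cdkn1c was lost without TET_WT day 0 replicate 2 or TET_WT day 1 replicate 2 or 3 (differences 1.36 to 1.52, adjusted p 0.0542 to 0.151). The member counts were 3 and 7 without day 1 replicate 2, 11 and 9 without day 0 replicate 2, and 2 and 0 at equal depth. At the highest tile of Rtl1, day 1 differed from day 0 by -1.02 (SE 0.15, adjusted p = 1.03e-06), and day 2 from day 1 by -0.94 (SE 0.15, adjusted p = 5.09e-07). The call of day 1 against day 0 there was lost at equal depth, with median centring and without the variance trend (differences -1.02 to -0.96, adjusted p 0.111 to 0.394).

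From day 1 to day 2, 2 members rose and 0 fell over whole genes (5.26%, against 9.59% of all genes, with 8.99% higher). Dio3, the deiodinase that inactivates thyroid hormone, had 0.30, 0.49 and 0.66 at day 2, against -0.85 and -0.26 at day 1, a difference of 1.04 (SE 0.18, adjusted p = 0.00336). The call passed in 20 of 21 alternatives and was lost with voom (0.87, adjusted p = 0.117). Ddc had 0.63, 0.73 and 0.70 at day 2, against 0.19 and 0.11 at day 1, a difference of 0.54 (SE 0.12, adjusted p = 0.0133), lost without TET_WT day 1 replicate 2 or 3 or TET_WT day 2 replicate 2, and with the median over tiles, at equal depth, with median centring, with quantile normalization, with voom (differences 0.17 to 0.58, adjusted p 0.0525 to 0.596). Neither gene overlapped between the days. Counts were 5 and 2 without day 0 replicate 2, which enters only through the shared estimate of spread. Of all genes, 14.5% were higher and 2.68% lower in that fit.

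Over tiles of members 60 rose and 17 fell between day 1 and day 2, or 5.12%, against 2.96% of all tiles, with 2.41% of all tiles higher and 0.551% lower. At starts 4 of 45 rose and 0 fell, against 8.63% of all start tiles, of which 8.27% were higher and 0.356% lower. Tiles that rose numbered 2 without either day 1 library or TET_WT day 2 replicate 1 or 2, and 5 without day 0 replicate 2. The most upstream start of Gnas differed by 1.45 (SE 0.38, adjusted p = 0.0103), and that of Zim1, a zinc-finger gene, by 2.39 (SE 0.64, adjusted p = 0.0145). A start of Ddc (chr11:11890001-11892000) differed by 1.43 (SE 0.42, adjusted p = 0.0312), and a start of Slc38a4 (chr15:97020001-97022000) by 1.06 (SE 0.27, adjusted p = 0.00863). The Zim1 tile had -0.51, -0.80 and 0.026 at day 2, against -2.66 and -2.98 at day 1, where it held 1 and 3 reads. Each of these start calls was lost when a single library was left out. Gnas was lost without TET_WT day 1 replicate 2 or TET_WT day 2 replicate 1 (differences 0.90 to 1.31, adjusted p 0.0922 to 0.437). Zim1 was lost without TET_WT day 1 replicate 3 or TET_WT day 2 replicate 1 or 3 (differences 2.17 to 2.43, adjusted p 0.0561 to 0.137). The start of Ddc was lost without TET_WT day 1 replicate 2 or TET_WT day 2 replicate 1 or 2 (differences 0.88 to 1.41, adjusted p 0.124 to 0.559). That of Slc38a4 was lost without TET_WT day 1 replicate 3 or TET_WT day 2 replicate 2 (differences 0.90 to 0.92, adjusted p 0.095 to 0.133). The largest gains were in Plagl1 (chr10:13108001-13110000), 4.39 (SE 0.65, adjusted p = 1.41e-07), Zdbf2 (chr1:63310001-63312000), 3.92 (SE 0.63, adjusted p = 1.3e-06), and Ddc (chr11:11878001-11880000), 3.70 (SE 0.66, adjusted p = 1.72e-05). The largest losses were in Trappc9 (chr15:72716001-72718000), -3.62 (SE 1.05, adjusted p = 0.0299), in Ddc (chr11:11826001-11828000), -1.35 (SE 0.40, adjusted p = 0.0339), and in Rtl1 (chr12:109600001-109602000), -1.33 (SE 0.33, adjusted p = 0.00537). Tile counts were 40 and 3 without day 1 replicate 2 and 6 and 3 at equal depth. The calls of the losses rest on few libraries: Trappc9 was lost without TET_WT day 1 replicate 2 or TET_WT day 2 replicate 1, 2 or 3 (differences -3.77 to -2.67, adjusted p 0.0773 to 0.501). Ddc was lost without TET_WT day 1 replicate 2 or 3 or TET_WT day 2 replicate 1, 2 or 3 (differences -1.47 to -1.22, adjusted p 0.0511 to 0.316). Rtl1 was lost without TET_WT day 1 replicate 3 (-1.08, adjusted p = 0.128).

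DNMT_WT and TET_WT, both wild type, were compared at day 2, when both had become EpiLC, to see how far imprinted genes differ between lines. Over whole genes 10 members were higher in DNMT_WT and 0 lower, or 26.3%, against 19% of all genes, of which 14.9% were higher and 4.07% lower. The members higher in DNMT_WT were Dio3, Rtl1, Cdkn1c, H13, Mcts2, Zrsr1, Phlda2, Slc22a18, Igf2 and Nnat. The median difference over all 38 was 0.14, against 0.099 for all genes. With median centring the counts were 6 and 0, with quantile normalization 3 and 1, and with voom 7 and 3, where all genes gave 5.8% and 6.77%, 4.19% and 7.62%, and 12.7% and 13.8%. The labels do not say whether the lines share a parental strain. A difference between lines, between strains, between cultures and between library batches cannot be told apart here.

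The lowest adjusted p-values among members were those of Dio3 and Rtl1, in the Dlk1, Rtl1 and Dio3 cluster of chromosome 12. The difference of Mcts2, given below, was larger than either. Dio3 (chr12:110279230-110281097) had 2.09, 1.95 and 1.83 in DNMT_WT, against 0.30, 0.49 and 0.66 in TET_WT at day 2, a difference of 1.47 (SE 0.16, adjusted p = 0.000143). Rtl1 had 1.57, 1.52 and 1.65 in DNMT_WT, against 0.50, 0.75 and 0.59 in TET_WT, a difference of 0.97 (SE 0.11, adjusted p = 0.000143). The lines did not overlap in either gene, and both calls passed in all alternatives run, 21 for Dio3 and 22 for Rtl1. All 23 tiles of Rtl1 were higher in DNMT_WT and 15 of them passed, as did all 4 tiles of Dio3. Dlk1, a membrane protein related to Notch ligands, had 1.29, 1.55 and 1.14 in DNMT_WT, against 0.64, 1.13 and 1.0 in TET_WT, a difference of 0.40 (SE 0.16, adjusted p = 0.101) that did not pass. Set beside TET_WT at day 0, where Rtl1 had 1.06, 1.33 and 1.21 and Dio3 -0.18, 0.25 and 0.073, the DNMT_WT values of both were also higher.

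**Figure D5:**
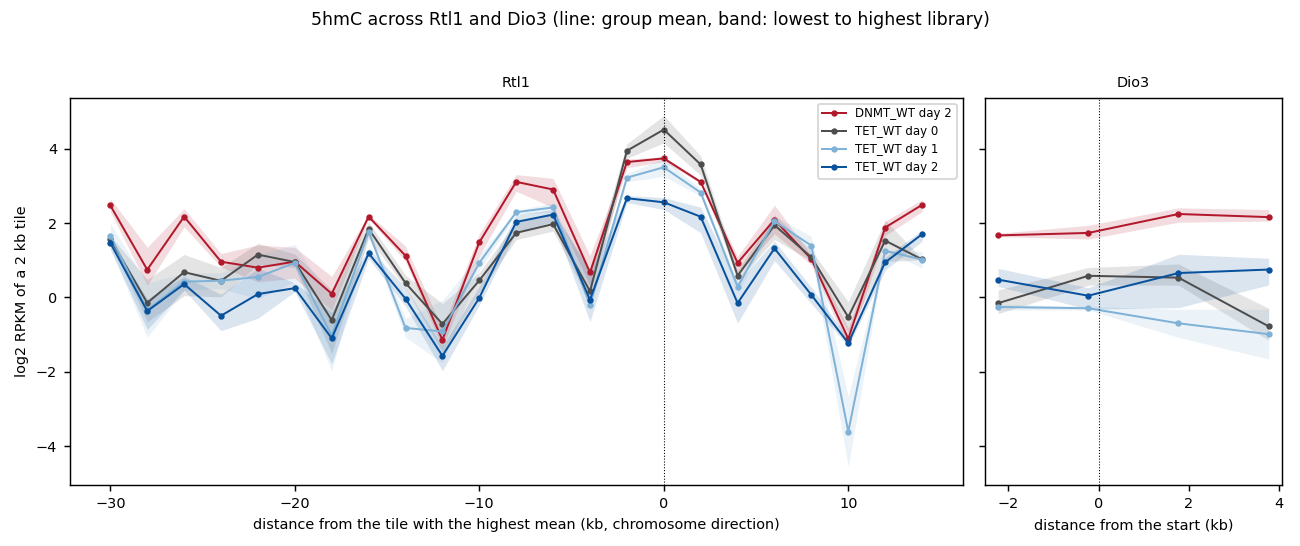
Group mean log2 RPKM (lines) with the lowest and highest library (bands) of the 2 kb tiles of Rtl1 (left, distance in kb from its highest tile) and Dio3 (right, distance in kb from its start). At the highest tile of Rtl1 DNMT_WT averages 3.75, and TET_WT 4.52 at day 0, 3.51 at day 1 and 2.56 at day 2, while over Dio3 the DNMT_WT line lies above all 3 TET_WT lines.

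A cluster of chromosome 7, formed here by distance alone, holds Igf2, Kcnq1, Cdkn1c, Slc22a18 and Phlda2. In it, Cdkn1c (chr7:143458339-143461059), an inhibitor of cell division, had 0.87, 1.08 and 1.07 in DNMT_WT, against 0.11, -0.35 and 0.071 in TET_WT. The difference of 1.06 (SE 0.15, adjusted p = 0.000764) passed in all 21 alternatives. A tile of Cdkn1c (chr7:143460001-143462000) had 1.91, 2.4 and 2.3 in DNMT_WT, against -0.072, -0.12 and -0.56 in TET_WT, a difference of 2.46 (SE 0.39, adjusted p = 7.23e-07). The lines did not overlap in the gene or the tile. Slc22a18 (chr7:143473726-143499334), a transporter, had 0.29, 0.35 and 0.56 in DNMT_WT, against -0.46, -0.18 and -0.31 in TET_WT, a difference of 0.72 (SE 0.17, adjusted p = 0.0108). Phlda2 had 1.25, 1.64 and 1.31 in DNMT_WT, against 0.56, 0.71 and 0.45 in TET_WT, a difference of 0.83 (SE 0.20, adjusted p = 0.0137). Igf2 had 0.52, 0.34 and 0.68 in DNMT_WT, against 0.030, 0.14 and -0.14 in TET_WT, a difference of 0.51 (SE 0.14, adjusted p = 0.0213). In these 3 genes, too, all DNMT_WT libraries were above all TET_WT day 2 libraries. Slc22a18 was lost without DNMT_WT replicate 3 or TET_WT day 2 replicate 1, and with median centring, with quantile normalization (differences 0.53 to 0.65, adjusted p 0.0523 to 0.108). Phlda2 was lost without DNMT_WT replicate 2 or TET_WT day 2 replicate 3, and with the median over tiles, with median centring, with quantile normalization, with voom (differences 0.42 to 0.77, adjusted p 0.053 to 0.142). Igf2 was lost without DNMT_WT replicate 1 or 3 or TET_WT day 2 replicate 1 or 3, and with the median over tiles, at equal depth, with median centring, with quantile normalization, with voom (differences -0.082 to 0.52, adjusted p 0.0645 to 0.841), and turned to -0.082 with the median over tiles.

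On chromosome 2, H13 had 0.98, 1.19 and 1.1 in DNMT_WT, against 0.50, 0.47 and 0.37 in TET_WT, a difference of 0.64 (SE 0.13, adjusted p = 0.00435). Mcts2, a retrogene inside it that encodes a translation factor (chr2:152687148-152687946), had -0.56, 0.42 and 0.073 in DNMT_WT, against -2.27, -1.32 and -1.32 in TET_WT over its 3 tiles, a difference of 1.61 (SE 0.41, adjusted p = 0.016). Nnat had 0.61, 0.61 and -0.12 in DNMT_WT, against -0.71, -0.44 and -0.22 in TET_WT, a difference of 0.82 (SE 0.26, adjusted p = 0.0462). None of the 3 overlapped between lines. H13 was lost with the median over tiles, with quantile normalization (differences 0.15 to 0.41, adjusted p 0.0582 to 0.659). Mcts2 was lost without DNMT_WT replicate 2 or 3 or TET_WT day 2 replicate 1, and at equal depth, with quantile normalization (differences 1.3 to 1.57, adjusted p 0.0514 to 0.125). Nnat was lost without DNMT_WT replicate 1 or 2 or TET_WT day 0 replicate 1 or TET_WT day 2 replicate 1, 2 or 3, and with the median over tiles, without the variance trend, with median centring, with quantile normalization, with voom (differences 0.56 to 0.94, adjusted p 0.0515 to 0.214). On chromosome 11, Zrsr1, a splicing-factor retrogene inside Commd1 (chr11:22972005-22976496), had -1.37, -0.88 and -0.84 in DNMT_WT, against -2.18, -1.86 and -2.22 in TET_WT, a difference of 1.05 (SE 0.23, adjusted p = 0.00886) without overlap. The call was lost without the flanks, with the median over tiles, with quantile normalization, with voom (differences 0.66 to 1.23, adjusted p 0.0512 to 0.111). Its host Commd1, which acts in copper balance, had -0.53, -0.25 and -0.34 in DNMT_WT, against -0.38, -0.38 and -0.45 in TET_WT, a difference of 0.031 (SE 0.16, adjusted p = 0.925). The difference between host and guest was not tested. For H13 and Mcts2 the mean over the tile of Mcts2 differed by 1.62, and over the other 22 tiles of H13 by 0.60.

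Over single tiles 41 were higher in DNMT_WT and 22 lower, or 4.19%, against 3.24% of all tiles. Higher tiles made up 2.73%, against 1% of all tiles, and lower tiles 1.46%, against 2.24%. Counts were 38 and 7 with median centring, 3 and 1 at equal depth, 100 and 38 with only the compared groups fitted and 60 and 29 without TET_WT day 0 replicate 2, which enters only through the shared estimate of spread. Rtl1 alone held 15 of the higher tiles.

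At starts, 4 of 45 tiles were higher in DNMT_WT and 3 lower (8.89% and 6.67%, against 4.57% and 1.89% of all start tiles, or 6.47% in either direction). Higher tiles numbered 12 with only the compared groups fitted, 8 when TET_WT day 1 replicate 2 was left out, 7 when day 1 replicate 3 was and 6 when day 0 replicate 2 was. Lower tiles numbered 3 in each of these fits. They numbered 2 without DNMT_WT replicate 3 or any TET_WT day 2 library. The most upstream start of Gnas had 2.64, 3.06 and 2.87 in DNMT_WT, against 0.61, 0.048 and 0.35 in TET_WT, a difference of 2.52 (SE 0.34, adjusted p = 2.94e-09). The next tile (chr2:174286001-174288000) had 2.10, 2.44 and 2.15 in DNMT_WT, against 0.53, -0.035 and 0.61 in TET_WT, a difference of 1.86 (SE 0.35, adjusted p = 5.11e-05). Ndn had 1.87, 2.36 and 2.07 in DNMT_WT, against -0.011, 0.88 and 0.14 in TET_WT over its start, a difference of 1.76 (SE 0.33, adjusted p = 6.71e-05). Ndn as a whole gene of 3 tiles differed by 1.01 (SE 0.45, adjusted p = 0.138), which did not pass. In these tiles every DNMT_WT library exceeded every TET_WT library of any day. Plagl1 had 2.52, 2.51 and 2.32 in DNMT_WT, against 0.76, 1.61 and 1.25 in TET_WT over its start (chr10:13090001-13092000), a difference of 1.24 (SE 0.25, adjusted p = 0.000202). Dio3 had 1.94, 1.70 and 1.57 in DNMT_WT, against 0.26, -0.31 and 0.20 in TET_WT (chr12:110278001-110280000), a difference of 1.69 (SE 0.32, adjusted p = 7.10e-05). Both were again without overlap.

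Lower in DNMT_WT was above all the inner start of Mest, with -1.57, -2.83 and -1.35 in DNMT_WT, against 1.13, 0.63 and 1.3 in TET_WT, or 12, 2 and 10 reads against 53, 27 and 58. The lines did not overlap, and the difference of -2.94 (SE 0.33, adjusted p = 6.66e-13) passed in all 18 alternatives run. The outer start of Mest (chr6:30732001-30734000), the strongest tile of the gene, differed by only -0.41 (SE 0.17, adjusted p = 0.231), which did not pass. The inner start of Grb10 had 0.093, -0.24 and 0.23 in DNMT_WT, against 1.43, 1.20 and 1.49 in TET_WT (chr11:12026001-12028000), a difference of -1.34 (SE 0.27, adjusted p = 0.00024). The outermost start of Slc38a4 had 0.30, 0.26 and -1.21 in DNMT_WT, against 1.08, 0.88 and 0.90 in TET_WT (chr15:97054001-97056000), a difference of -1.17 (SE 0.34, adjusted p = 0.0296). Slc38a4 was lost without DNMT_WT replicate 3 or TET_WT day 2 replicate 1, 2 or 3, and at equal depth, with median centring, without the variance trend, with quantile normalization (differences -1.20 to -0.67, adjusted p 0.0886 to 0.477). Of the 7 start calls, Mest alone passed at equal depth, and Mest and Gnas without the variance trend.

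The lines also stood apart, in either direction, over tiles of other imprinted regions, of which those of Kcnq1ot1 and of Sgce and Peg10 were picked after their values were seen. The Impact tile named above had -3.57, -2.83 and -4.83 in DNMT_WT, against -0.27, -0.80 and -0.65 in TET_WT, with 3, 2 and 0 reads against 20, 10 and 15, a difference of -3.17 (SE 0.56, adjusted p = 2.03e-05), the most negative of all member tiles. A tile just below the start of Kcnq1ot1 (chr7:143294001-143296000) had -1.70, -1.24 and -1.21 in DNMT_WT, against 0.40, 0.40 and 0.73 in TET_WT, a difference of -1.89 (SE 0.33, adjusted p = 1.37e-05). A tile of Gnas (chr2:174294001-174296000), about 10 kb on from its most upstream start, had -2.16, -3.98 and -1.50 in DNMT_WT, against -0.20, -0.42 and -0.65 in TET_WT, a difference of -2.12 (SE 0.51, adjusted p = 0.00351). In these 3 tiles all DNMT_WT libraries were below all TET_WT libraries of any day. Higher in DNMT_WT was the tile between Sgce and Peg10 (chr6:4748001-4750000), with 0.37, 0.50 and 0.027 in DNMT_WT, against -2.27, -1.31 and -0.86 in TET_WT, a difference of 1.78 (SE 0.42, adjusted p = 0.00331). Over the starts of Peg3 and Airn, which fell in TET_WT, the lines overlapped at day 2. The Peg3 tile had -0.99, -0.50 and -0.43 in DNMT_WT, against -0.69, -1.12 and -0.035 in TET_WT, a difference of -0.023 (SE 0.38, adjusted p = 0.986). The Airn tile had -0.40, -0.50 and -0.030 in DNMT_WT, against -0.35, 0.048 and -0.97 in TET_WT, a difference of 0.11 (SE 0.38, adjusted p = 0.964). Over the start of Nnat, which also fell in TET_WT, the lines did not overlap. This tile had 0.55, 0.76 and 0.85 in DNMT_WT, against -1.01, -0.035 and -0.035 in TET_WT at day 2. The difference of 1.08 (SE 0.37, adjusted p = 0.0919) did not pass. The largest differences above were a Snrpn tile (chr7:60390001-60392000), 3.21 (SE 0.91, adjusted p = 0.0221), with 14, 10 and 6 reads in DNMT_WT and 0, 1 and 0 in TET_WT, and an H13 tile (chr2:152670001-152672000), 2.97 (SE 0.89, adjusted p = 0.0368). Both were lost when a library was left out. Snrpn was lost without DNMT_WT replicate 2 or TET_WT day 2 replicate 1, 2 or 3 (differences 2.81 to 3.42, adjusted p 0.0694 to 0.133). H13 was lost without DNMT_WT replicate 2 or 3 or TET_WT day 2 replicate 2 or 3 (differences 2.19 to 2.91, adjusted p 0.118 to 0.326).

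In limma's fit of all 11 libraries by group to log2 RPKM as deposited, the remaining members passed in no comparison of whole genes. With median centring Peg3 (-0.65, adjusted p = 0.0482) and Zim1 (-0.54, adjusted p = 0.0469) were lower at day 2 than at day 0. With quantile normalization Peg3 (-0.65), Zim1 (-0.49), Mest (-0.43) and Slc38a4 (-0.30) were, with adjusted p 0.014 to 0.0447. Quantile normalization also called Mest lower in DNMT_WT than in TET_WT (-0.41, adjusted p = 0.023). With voom on the recovered reads, 12 of the remaining members passed at day 2 against day 0. Lower were Peg10 (-0.75), Peg3 (-0.70), Copg2 (-0.55), Gnas (-0.43), Sgce (-0.40), Zim1 (-0.35), Mest (-0.35), Impact (-0.31), Slc38a4 (-0.27) and Trappc9 (-0.18), and higher were Kcnq1 (0.40) and Kcnk9 (0.34). Voom also called Peg10 (-0.55) lower at day 2 than at day 1. In DNMT_WT it called Ndn (1.36) higher and Sgce (-0.42), Trappc9 (-0.29) and Grb10 (-0.28) lower than in TET_WT. The values that follow are those on log2 RPKM as deposited. In the Peg3 cluster, Peg3 had -0.47, -0.46 and -0.66 in DNMT_WT at day 2, and 0.099, -0.53 and -0.28 at day 0, -0.21 and -0.48 at day 1 and -0.53, -1.17 and -0.54 at day 2 in TET_WT, with TET_WT day 2 replicate 2 lowest. Usp29 had -0.91, -0.94 and -1.09 in DNMT_WT at day 2, and -1.15, -1.36 and -0.92 at day 0, -1.07 and -1.26 at day 1 and -1.11, -1.14 and -1.15 at day 2 in TET_WT, all close together. Its day 2 difference was 0.0071 (SE 0.18, adjusted p = 0.987), against -0.51 (SE 0.21, adjusted p = 0.113) for Peg3 and -0.40 (SE 0.17, adjusted p = 0.123) for Zim1. In the Sgce cluster, Peg10 had -0.31, -0.21 and -0.036 in DNMT_WT at day 2, and 0.70, -0.47 and 0.10 at day 0, 0.16 and -0.31 at day 1 and -0.48, -0.40 and -0.45 at day 2 in TET_WT, where day 0 replicate 1 was far above replicate 2. Sgce had 0.37, 0.37 and 0.19 in DNMT_WT at day 2, and 1.06, 0.38 and 1.11 at day 0, 0.60 and 0.71 at day 1 and 0.67, 0.58 and 0.67 at day 2 in TET_WT, where day 0 replicate 2 was far below its partners. The day 2 differences of -0.55 (SE 0.23, adjusted p = 0.133) and -0.21 (SE 0.16, adjusted p = 0.457) were within this spread. Both genes passed without day 0 replicate 2, as given above.

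Copg2, a coat protein of vesicles whose end overlaps that of Mest, had -1.77, -1.67 and -1.89 in DNMT_WT at day 2, and -0.75, -2.04 and -0.58 at day 0, -1.03 and -1.08 at day 1 and -1.41, -1.60 and -1.49 at day 2 in TET_WT. Day 0 replicate 2 was again apart, and the groups overlapped. Its difference at day 2 was -0.38 (SE 0.31, adjusted p = 0.495), and that of Mest -0.20 (SE 0.10, adjusted p = 0.214). Nap1l5, a retrogene of a nucleosome assembly protein, had -0.32, -0.26 and -0.57 in DNMT_WT at day 2, and 0.026, -1.01 and 0.37 at day 0, 0.54 and 0.35 at day 1 and -0.35, -0.90 and -0.23 at day 2 in TET_WT, a difference of -0.29 (SE 0.29, adjusted p = 0.592) at day 2, with the same library lowest. Magel2, a gene of the MAGE family, had -1.58, -0.56 and -0.84 in DNMT_WT at day 2, and -1.87, -0.96 and -0.35 at day 0, -0.080 and -0.72 at day 1 and -0.35, -0.22 and -0.40 at day 2 in TET_WT. It differed by 0.74 (SE 0.35, adjusted p = 0.178).

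Gnas as a whole gene had 0.041, 0.19 and 0.12 in DNMT_WT at day 2, and 0.077, -0.0075 and -0.17 at day 0, -0.18 and -0.21 at day 1 and -0.12, -0.096 and -0.046 at day 2 in TET_WT. Its difference of -0.056 (SE 0.11, adjusted p = 0.83) at day 2 sums 2 tiles that rose and 6 that fell. Plagl1 had -0.083, 0.27 and 0.14 in DNMT_WT at day 2, and 0.19, -0.74 and -0.26 at day 0, -0.25 and -0.25 at day 1 and -0.11, 0.014 and 0.077 at day 2 in TET_WT, a difference of 0.26 (SE 0.19, adjusted p = 0.435), with 3 tiles up and 1 down. In both, tiles were called in either direction while the mean did not pass. The only lower tile of Plagl1 (chr10:13120001-13122000) overlapped between the days. Its call was lost without TET_WT day 0 replicate 1 or TET_WT day 2 replicate 1, at equal depth and without the variance trend (adjusted p 0.0553 to 0.408). Its higher tile chr10:13092001-13094000 overlapped too, and was lost without TET_WT day 0 replicate 2, at equal depth and without the trend (adjusted p 0.418 to 0.643). Inpp5f, a phosphatase of inositol lipids, had 0.097, 0.15 and 0.055 in DNMT_WT at day 2, and 0.047, -0.43 and 0.15 at day 0, 0.063 and -0.021 at day 1 and 0.29, 0.17 and -0.061 at day 2 in TET_WT, a difference of 0.21 (SE 0.15, adjusted p = 0.427). Rasgrf1, an exchange factor for Ras proteins, had -1.36, -1.26 and -1.32 in DNMT_WT at day 2, and -1.23, -1.01 and -1.07 at day 0, -0.84 and -1.0 at day 1 and -1.13, -1.07 and -1.13 at day 2 in TET_WT, a difference of -0.0061 (SE 0.17, adjusted p = 0.988). Its 61 tested tiles gave 1 gain and 0 losses.

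Commd1 had -0.53, -0.25 and -0.34 in DNMT_WT at day 2, and -0.39, -0.63 and -0.45 at day 0, -0.88 and -0.39 at day 1 and -0.38, -0.38 and -0.45 at day 2 in TET_WT, a difference of 0.086 (SE 0.16, adjusted p = 0.806) at day 2. Impact had -0.17, -0.20 and -0.084 in DNMT_WT at day 2, and 0.22, -0.23 and 0.033 at day 0, 0.098 and -0.39 at day 1 and -0.097, -0.18 and -0.27 at day 2 in TET_WT, a difference of -0.19 (SE 0.15, adjusted p = 0.478). The groups overlapped in both. Kcnk9, a potassium channel gene, had -2.83, -2.10 and -2.25 in DNMT_WT at day 2, and -2.50, -2.61 and -2.20 at day 0, -1.95 and -2.11 at day 1 and -2.01, -2.41 and -2.32 at day 2 in TET_WT. It differed by 0.19 (SE 0.28, adjusted p = 0.745). Slc38a4 differed by -0.068 (SE 0.088, adjusted p = 0.696) while 5 of its 33 tiles rose and 6 fell. Of the others, Kcnq1 had -0.94, -0.86 and -0.82 in TET_WT at day 2, against -1.20, -1.39 and -1.11 at day 0, without overlap, a difference of 0.36 (SE 0.16, adjusted p = 0.147). Trappc9 had -0.39, -0.40 and -0.37 in TET_WT at day 2, against -0.18, -0.25 and -0.26 at day 0, also without overlap, a difference of -0.15 (SE 0.12, adjusted p = 0.479). Over Zim1, Ndn, Kcnq1, Grb10, Trappc9 and Dlk1 the day 2 differences ran from -0.40 for Zim1 to 0.48 for Dlk1.

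Other genes known to be imprinted in mouse, 39 of 50 of which could be measured, gave 5 higher and 1 lower at day 2 against day 0 (15.4%, against 17.8% of all genes), with a median difference of 0.091. The counts were 9 and 6 without TET_WT day 0 replicate 2, where all genes gave 22% and 9.56%. Higher were Th (0.99), Jade1 (0.75), Ago2 (0.65), Bcl2l1 (0.56) and Gab1 (0.31), and Phactr2 (-0.64) was lower. Between lines 4 were higher in DNMT_WT, namely Ascl2 (1.39), Jade1 (1.0), Blcap (0.98) and Gpr1 (0.50), and 2 lower, Htr2a (-1.20) and Calcr (-1.02), with a median of 0.072. Together these made up 15.4%, against 19% of all genes. The counts were 7 and 10 without TET_WT day 0 replicate 2, where all genes gave 21.9% and 8.09%. Ascl2 lies in the cluster of Cdkn1c and Phlda2, and Nnat lies inside Blcap. From day 1 to day 2, 2 rose, Jade1 (1.06) and Ago2 (0.53), and 0 fell (5.13%, against 9.59% of all genes). The counts were 3 and 1 without TET_WT day 0 replicate 2, where all genes gave 14.5% and 2.68%. Between day 1 and day 0 limma called 0, and 3 had an unadjusted p under 0.05.

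Of 23 genes that set or keep imprints, 8 rose and 0 fell at day 2 against day 0 (34.8%, against 17.8% of all genes), with a median difference of 0.22. The counts were 11 and 2 without TET_WT day 0 replicate 2, where all genes gave 22% and 9.56%. The 8 were Zfp57 (1.79), Zfp42 (1.56), Tet2 (1.26), Uhrf1 (1.1), Trim28 (0.96), Dppa3 (0.84), Tet1 (0.68) and Ehmt2 (0.56). Zfp57 and Trim28 hold methylation at imprinted regions, Uhrf1 guides the maintenance methyltransferase and Dppa3 shields imprints in the egg. From day 1 to day 2, 6 of the 23 rose and 0 fell (26.1%, against 9.59% of all genes), the largest difference being that of Zfp57 (1.39). In DNMT_WT 5 were higher than in TET_WT and 0 lower (21.7%, against 19% of all genes, of which 14.9% were higher). The 5 were Zfp57 (0.87), Ehmt2 (0.74), Dnmt1 (0.51), Dppa3 (0.45) and Tet1 (0.42). The counts were 8 and 0 without TET_WT day 0 replicate 2, where all genes gave 21.9% and 8.09%. Between day 1 and day 0 limma called 0, and 1 had an unadjusted p under 0.05. These are values of 5hmC over the genes, not of their RNA. A list of 10 genes of feeder cells and fibroblasts was likewise read only as DNA marks. It gave 1 higher, Thy1 (0.54), and 0 lower at day 2 against day 0 (10%, against 17.8% of all genes). At day 2 against day 1 it gave 1 higher, Thy1 (0.80), and 0 lower (10%, against 9.59%). Without TET_WT day 0 replicate 2 these counts were 2 and 0, and 2 and 1, where all genes gave 22% and 9.56%, and 14.5% and 2.68%. In DNMT_WT 1 was higher, Thy1 (0.71), and 1 lower, S100a4 (-0.64), or 20%, against 19% of all genes. Without TET_WT day 0 replicate 2 the line counts were 2 and 2, where all genes gave 21.9% and 8.09%. Between day 1 and day 0 limma called 0 of them, and 3 had an unadjusted p under 0.05.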

How the data were processed

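Per the labels' protocols, genomic DNA was sonicated and fragments with 5hmC were captured with an HMCP-seq kit. Per the submitters' processing notes, reads went through Trim Galore 0.6.5, cutadapt 2.3 and Bowtie2 2.4.1 on GRCm38. The tool that counted reads in tiles is not given in the sources used here. The authors deposited log2 RPKM in 2 kb tiles, 1 column a library. Since RPKM is relative to the library total, only relative change can be measured. Only the wild-type libraries are analysed here.

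Reads were recovered from the log2 RPKM steps: 99.9985% of values came out whole within 0.1%, with a tile without reads standing at 0.9 reads. The reads sum to 2.32 times the total that the RPKM scale implies, and why was not tested, so depth is stated as recovered reads. Tiles of chromosomes 1 to 19 and X were kept, without the lowest 10% and the highest 0.1% by mean, which left 1183888. Each gene was given the mean of its tested tiles, those within 2 kb of its span, and 20717 genes had at least 3.

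Genes and tiles were each fitted once with all 11 libraries in limma 3.58.1 (R 4.3.3, group means, variance trend), and a call is an adjusted p under 0.05, with Benjamini-Hochberg adjustment over all genes or all tested tiles. The fit was tested on simulated data. Tables and figures were made with Python 3.11.15, pandas 2.3.3 and matplotlib 3.10.9. The members and lists were chosen with earlier results of these data known. Members given by library were those called, the one that moved most at day 2 in each cluster, the 3 highest, the 3 lowest and pairs that share tiles. Named tiles were those over starts, the highest of each cluster and, in each comparison, the 3 called with the largest difference in either direction. Alternatives were no tile filter, no flanks, the median over tiles, no tiles shared with other genes, equal depth of 7342022 reads, only the compared groups, no variance trend, median centring, quantile normalization, voom on recovered reads, the replicate number as a block, and each library left out.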

Additional observations from a re-analysis of the deposited data

How the results depend on the processing

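Counts of calls moved with the processing, and the cause was not tested. Shares of all tiles are given for the main fit only, so tile counts of the alternatives stand without such a share. For TET_WT day 2 against day 0, the 4 members called higher became 2 with the median over tiles and at equal depth, and 1 with only the groups compared, without the variance trend, with median centring and with quantile normalization. The 2 called lower became 4 with centring, 6 with quantile normalization and 12 with voom. Of member tiles, the 111 higher became 21 at equal depth and 19 without the trend, and the 64 lower became 13, 3 and, with centring, 26. For day 1 against day 0, the 8 higher tiles became 2 at equal depth, with only the groups compared and with centring, and 0 without the trend. The 15 lower became 0 at equal depth and without the trend, 9 with only the groups compared and 1 with centring. For day 2 against day 1, the 2 higher members became 1 without flanks, with the median over tiles, at equal depth, with centring and with quantile normalization, 0 with voom and 4 with the replicate block, and the 0 lower became 1 with only the groups compared and with quantile normalization and 2 with voom. The 60 higher tiles became 6 at equal depth, 0 without the trend and 38 with centring, and the 17 lower became 3, 0 and 2, and 26 with quantile normalization. For DNMT_WT against TET_WT, the 10 higher members became 4 without flanks, 5 with the median over tiles, 6 with centring and 3 with quantile normalization, and the 0 lower became 1 with only the groups compared and with quantile normalization and 3 with voom. The 41 higher tiles became 3 at equal depth, 100 with only the groups compared and 1 without the trend, and the 22 lower became 1, 38 and 4, and 7 with centring. The median difference of 0.14 became -0.0019 with centring, and Igf2 turned to -0.082 with the median over tiles.

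With 1 library left out, day 2 against day 0 gave 1 to 8 members higher and 1 to 8 lower, 78 to 132 tiles higher and 44 to 71 lower, and a median of -0.034 to 0.089. Day 1 against day 0 gave 0 members, 3 to 13 tiles higher and 7 to 22 lower, and a median of -0.073 to 0.068. Day 2 against day 1 gave 1 to 5 members higher and 0 to 2 lower, 37 to 71 tiles higher and 3 to 22 lower, and a median of -0.022 to 0.083. DNMT_WT against TET_WT gave 6 to 10 members higher and 0 to 1 lower, 26 to 60 tiles higher and 10 to 29 lower, and a median of 0.095 to 0.18. Where an omission left day 1 with 1 library, that library was assumed to vary like the other groups. Of the calls named in the text, 40 were lost at equal depth, 37 without the variance trend, 21 with centring and 4 with the replicate block, among them Igf2 at day 2 against day 0 (adjusted p = 0.0534). The replicate numbers do not pair the libraries: deviations of same-numbered libraries correlated at -0.29 to 0.12 over the 4 comparisons. The shallowest library held a median of 2 reads a tile, which limits what single tiles can show.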
